A study of Mus musculus with 11 samples.

Results

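The floxed control mice of the ZEB1 line and of the ZEB2 line were compared with each other, as samples without Cre that differ in line and in the floxed gene. The members were taken by their labelled genotypes. They were 5 of the 11 libraries of the series, 2 from ZEB1 flx/flx controls (numbered 2 and 3) and 3 from ZEB2 flx/flx controls (numbered 1 to 3). The 3 ZEB1 knockout and 3 ZEB2 knockout libraries carried the same floxed alleles plus HSACre, a recombinase under the human skeletal actin promoter that acts in muscle fibres. They served to see whether a difference between the control groups came back in libraries that do not enter that difference. The knockouts did enter the control test, because its spread was estimated from all 11 libraries in a common fit. Every library held RNA of gastrocnemius, a mixed calf muscle, pooled from 2 mice after 36 h of fasting. The labels used here state neither age nor strain. The line, the floxed gene and any strain background cannot be told apart in the control comparison, nor can these, the ZEB gene lost and Cre in the knockout comparison.

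A floxed allele carries recombination sites around an exon and is expected to work as the normal gene until Cre removes that exon. Zeb1 and Zeb2 encode DNA-binding factors with zinc fingers that are known for turning epithelial genes off. Lines made in different laboratories can also carry different stretches of genome around the modified gene and elsewhere. Such lines can differ in copies of genes, including processed pseudogenes, which are sequences copied back into the genome from a spliced messenger RNA of a coding gene.

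Total counts per library ran from 27.3 to 36.0 M in the 5 controls and from 29.6 to 46.3 M in the knockouts. Levels are given in CPM, the count as a share of the scaled library total, and are not corrected for gene length. The tissue label matched the markers: Acta1, the skeletal muscle actin, was at 22594 to 25276 CPM and Myh4, the fastest myosin heavy chain, at 18475 to 27201 CPM in the controls. The summed level of 4 Y-linked genes was 0 and 163 CPM in ZEB1 controls 2 and 3, 118, 250 and 0 CPM in ZEB2 controls 1 to 3, 0, 0 and 210 CPM in the ZEB1 knockouts and 216, 256 and 378 CPM in the ZEB2 knockouts, so the sex makeup of the pools was not matched. The ZEB1 controls also differed from each other, with 1853 genes (12.0% of those tested) more than 1 apart on the log2 scale. Trim63, a ubiquitin ligase of muscle atrophy, was at 770 CPM in ZEB1 control 2 and 4750 CPM in ZEB1 control 3.

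Between the control groups 3 of 15416 genes tested (0.0195%) passed an adjusted p of 0.05 in edgeR's quasi-likelihood test, all 3 lower in ZEB2 controls (0.0195%) and none higher (0%). At an unadjusted p under 0.05 there were 512 genes (3.32%), 242 higher (1.57%) and 270 lower (1.75%). The control groups did not overlap in 2562 genes (16.6%), 1381 with ZEB2 higher (8.96%) and 1181 with ZEB2 lower (7.66%). All 3 called genes, Gm3375, Gm7887 and Gm5503, are annotated as processed pseudogenes. In GENCODE M21 transcripts each was closest to the messenger RNA of 1 coding gene. Gm3375 (chromosome 7) was 98.9% identical to Psmb5, which encodes a catalytic subunit of the proteasome, with 8 mismatches over 796 aligned bases. Gm7887 (chromosome 6) was 99.6% identical to Pcnp, a small nuclear protein gene, with 2 mismatches over 537 bases. Gm5503 was 97.8% identical to Osgep, a tRNA modification enzyme gene, with 12 mismatches over 557 bases.

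How few bases tell a pseudogene read from a coding read is seen in these stretches of 90 bases, written 5′ to 3′ in the direction of the transcript. They were taken from the coding part of the GENCODE M21 transcripts (GRCm38) and chosen to hold as many mismatches as possible. Capitals mark the bases that differ within a pair. Gm3375 lies at chr7:3181474-3181563 on the plus strand and the Psmb5 stretch at chr14:54616550-54616639 on the minus strand. Gm7887 lies at chr6:48524611-48524700 on the minus strand, and the Pcnp stretch spans an intron at chr16:56017248-56018491 on the minus strand. Rps3a2, a pseudogene described further on, lies at chr14:88123108-88123197 on the minus strand, and its coding counterpart Rps3a1, a ribosomal protein gene, spans an intron at chr3:86138083-86138544 on the minus strand. 
Gm3375: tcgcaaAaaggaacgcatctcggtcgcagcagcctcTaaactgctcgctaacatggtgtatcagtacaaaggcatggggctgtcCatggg
Psmb5: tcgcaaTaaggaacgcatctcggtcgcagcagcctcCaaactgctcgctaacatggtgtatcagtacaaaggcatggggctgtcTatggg
Gm7887: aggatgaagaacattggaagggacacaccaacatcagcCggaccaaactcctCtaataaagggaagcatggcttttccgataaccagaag
Pcnp: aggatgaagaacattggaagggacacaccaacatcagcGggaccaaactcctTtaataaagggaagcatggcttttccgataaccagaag
Rps3a2: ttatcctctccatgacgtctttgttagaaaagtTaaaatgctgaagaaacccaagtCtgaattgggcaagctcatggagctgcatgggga
Rps3a1: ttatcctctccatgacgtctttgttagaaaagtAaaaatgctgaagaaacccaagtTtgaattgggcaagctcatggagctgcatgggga
The pairs differ at 3, 2 and 2 of the 90 bases. Counts of such near-identical copies are uncertain, because RSEM, which the submitters' notes name, divides reads that match both by estimation.

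Gm3375 stood at 15.4 and 11.2 CPM in ZEB1 controls 2 and 3 and at 0.278, 0.193 and 0.188 CPM in ZEB2 controls 1 to 3. The groups did not overlap, and the mean in ZEB1 controls was 13.3 ± 2.99 CPM (SD, n = 2). In the fit the level in ZEB1 controls was 59.7 times that in ZEB2 controls (log2 fold change -5.90, SE 0.29, edgeR adjusted p = 5.87e-06). The knockouts repeated this split, with 14.6, 16.7 and 16.2 CPM in the ZEB1 line and 0.299, 0.529 and 0.619 CPM in the ZEB2 line (log2 fold change -5.02, SE 0.26, edgeR adjusted p = 7.95e-06). Of the 3 called genes Gm3375 alone passed under all 20 alternative settings. Psmb5 showed no such split: it had 61.7 and 113 CPM in ZEB1 controls and 88.1, 125 and 96.4 CPM in ZEB2 controls, which overlapped (log2 fold change 0.24, SE 0.27). In the knockouts Psmb5 stood at 74.2, 63.3 and 97.3 CPM in the ZEB1 line and 152, 165 and 204 CPM in the ZEB2 line, so there the coding gene and its copy lay in opposite directions.

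Gm7887 had levels of 3.12 and 3.11 CPM in both ZEB1 controls, and 0.0928, 0.0967 and 0.242 CPM in the ZEB2 controls. That is 184 counts in the 2 ZEB1 control libraries against 15 in the 3 ZEB2 control libraries (log2 fold change -4.37, SE 0.49, edgeR adjusted p = 0.0161). In the knockouts it was at 4.61, 1.71 and 2.50 CPM in the ZEB1 line and 0.149, 0.184 and 0.141 CPM in the ZEB2 line (log2 fold change -4.17, edgeR adjusted p = 0.00641). Pcnp overlapped between the control groups, with a log2 fold change of -0.06 (SE 0.14).

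Gm5503 was the sparsest of the 3, with 53 and 47 counts in the ZEB1 controls and 3, 0 and 1 counts in the ZEB2 controls. Its levels were 1.74 and 1.64 CPM against 0.0928, 0 and 0.0269 CPM (log2 fold change -5.28, SE 0.66, edgeR adjusted p = 0.0276). The knockouts held 206 counts in the ZEB1 line and 3 in the ZEB2 line, a ratio of 80.2 in pooled CPM with a 95% exact interval of 27.1 to 392 that covers counting error only (edgeR adjusted p = 0.0053). Osgep had a log2 fold change of -0.04 (SE 0.14) between the controls.

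In the fit reported, Gm3375, Gm7887 and Gm5503 passed the test in both comparisons with the same sign: 3 of 3 control calls, and 10.3% of the 29 calls between the knockouts (0.188% of genes), of which 6 were higher (0.0389%) and 23 lower (0.149%). Between the controls Gm7887 passed in 15 of 20 alternative settings and Gm5503 in 9. With the Y-linked level as a covariate both missed the threshold between the knockouts (edgeR adjusted p = 0.105 and 0.0635). The knockout groups did not overlap in 4258 genes (27.6%), 2222 with ZEB2 higher (14.4%) and 2036 with ZEB2 lower (13.2%). The count of control calls was 1 without ZEB2 control 1 or ZEB2 control 2, 5 without ZEB1 knockout 1, 5 with RLE scaling, 7 without a filter on low counts and 16 in DESeq2 (14 lower, 2 higher), and the count called in both was 1 without ZEB2 control 1, ZEB2 control 2, ZEB2 knockout 1 or ZEB2 knockout 2, 5 without ZEB1 knockout 1 and 12 in DESeq2. The 29 knockout calls became 2 without ZEB2 knockout 1, 4 without ZEB2 knockout 2 or 3, 17 without ZEB1 knockout 1, 19 without ZEB1 knockout 3 or ZEB2 control 2, 55 without ZEB1 control 2, 52 without ZEB1 control 3 and 830 in DESeq2.

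**Figure D1:**
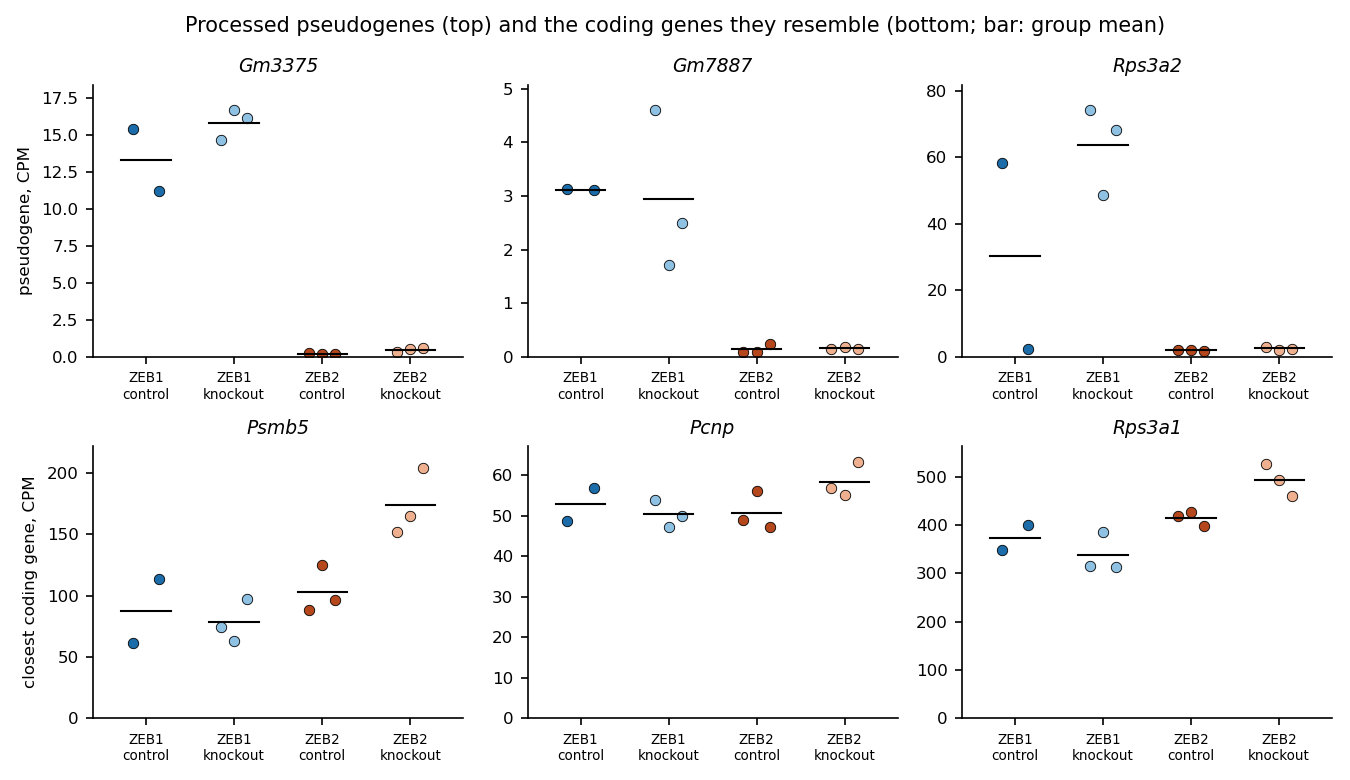
CPM in each library (points) and group mean (bar) of 3 processed pseudogenes in the upper row and of the coding gene each resembles in the lower row; each panel has its own axis from 0. Gm3375 and Gm7887 were low in all 6 ZEB2 libraries, Rps3a2 was low in these and in ZEB1 control 3 (2.27 CPM), and Psmb5 and Pcnp overlapped between the control groups.

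Myh6 and Kbtbd12 were the coding genes with the smallest p among those lower in ZEB2 controls. Both had been singled out from an earlier look at these data, so their values describe these libraries. Myh6 encodes the alpha heavy chain of cardiac myosin and occurs in small amounts in some skeletal fibres. It was at 44.9 and 36.5 CPM in ZEB1 controls 2 and 3 and at 5.84, 2.90 and 3.69 CPM in ZEB2 controls 1 to 3. The groups lay apart, with means of 40.7 ± 5.98 CPM (SD, n = 2) and 4.14 ± 1.52 CPM (SD, n = 3) and a ratio of 9.82. The log2 fold change of -3.30 (SE 0.44) missed the threshold in edgeR (adjusted p = 0.0556). DESeq2 gave Myh6 an adjusted p of 1.65e-10, and over the 20 alternatives the adjusted p ran from that value to 0.456, with 6 of them under 0.05.

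The knockouts showed the same order for Myh6, at 11.9, 40.3 and 23.8 CPM in the ZEB1 line against 2.57, 1.86 and 2.67 CPM in the ZEB2 line (log2 fold change -3.42, SE 0.43, edgeR adjusted p = 0.0171). All 5 ZEB1 libraries lay above all 6 ZEB2 libraries. The knockout call held in 15 of 20 alternatives and was lost without any 1 of ZEB2 knockouts 1 to 3 (edgeR adjusted p = 0.105 to 0.140) and with the Y-linked covariate (0.269), at log2 fold changes from -3.51 to -3.25. Averaged over both comparisons the log2 fold change was -3.36 (SE 0.31, edgeR adjusted p = 0.00165), and the change of the line difference with Cre was not called (edgeR adjusted p = 0.934).

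Myh7, the slow myosin heavy chain, is the closest coding relative of Myh6 and lies next to it in the genome. The Myh6 transcript was 91.8% identical to Myh7 over 94.8% of its length. Myh7 had 585 and 285 CPM in ZEB1 controls against 442, 366 and 483 CPM in the ZEB2 controls, with a log2 fold change of -0.02 (SE 0.36). The defining heart markers were at or near 0: Nkx2-5 and Nppb had no count in any of the 11 libraries, Myl7 had 1 count in all and Nppa at most 2 per library. The summed level of the 9 heart genes tested, of 20 listed, ran from 340 to 617 CPM in ZEB1 controls and from 273 to 950 CPM in ZEB2 controls, mostly Actc1, and overlapped. Of 13 myosin heavy chain genes tested 10 were higher and 3 lower in ZEB2 controls, none called. Myh10, a non-muscle myosin, was at 24.4 and 22.7 CPM against 37.9, 31.0 and 39.2 CPM (log2 fold change 0.61), but at -0.58 between the knockouts.

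Kbtbd12 encodes a BTB-kelch protein, a family whose members bring substrates to cullin ubiquitin ligases. It was at 78.2 and 76.1 CPM in ZEB1 controls and 27.4, 26.9 and 24.8 CPM in the ZEB2 controls. These values were tight within each group, 77.2 ± 1.48 CPM (SD, n = 2) and 26.4 ± 1.38 CPM (SD, n = 3), a ratio of 2.93. The log2 fold change was -1.55 (SE 0.23, edgeR adjusted p = 0.0783), short of the threshold, while DESeq2 gave 8.40e-06. Over the 20 alternatives the adjusted p of Kbtbd12 ran from that value to 0.561, with 6 under 0.05. The knockouts were at 57.9, 88.4 and 119 CPM in the ZEB1 line and 28.8, 25.0 and 29.1 CPM in the ZEB2 line (log2 fold change -1.68, SE 0.21, edgeR adjusted p = 0.0159). The 3 levels of ZEB1 knockouts were spread more widely than those of any other group, yet none came near the ZEB2 libraries. The knockout call of Kbtbd12 was lost without any 1 of ZEB2 knockouts 1 to 3 (edgeR adjusted p = 0.0961 to 0.110), at log2 fold changes from -1.70 to -1.61, and held in the other 17 alternatives. Of the 35 BTB-kelch genes tested 20 were higher and 15 lower between the controls, at a median of 0.03 on the log2 scale, and Kbtbd12 was the 1 member with an unadjusted p under 0.05.

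**Figure D2:**
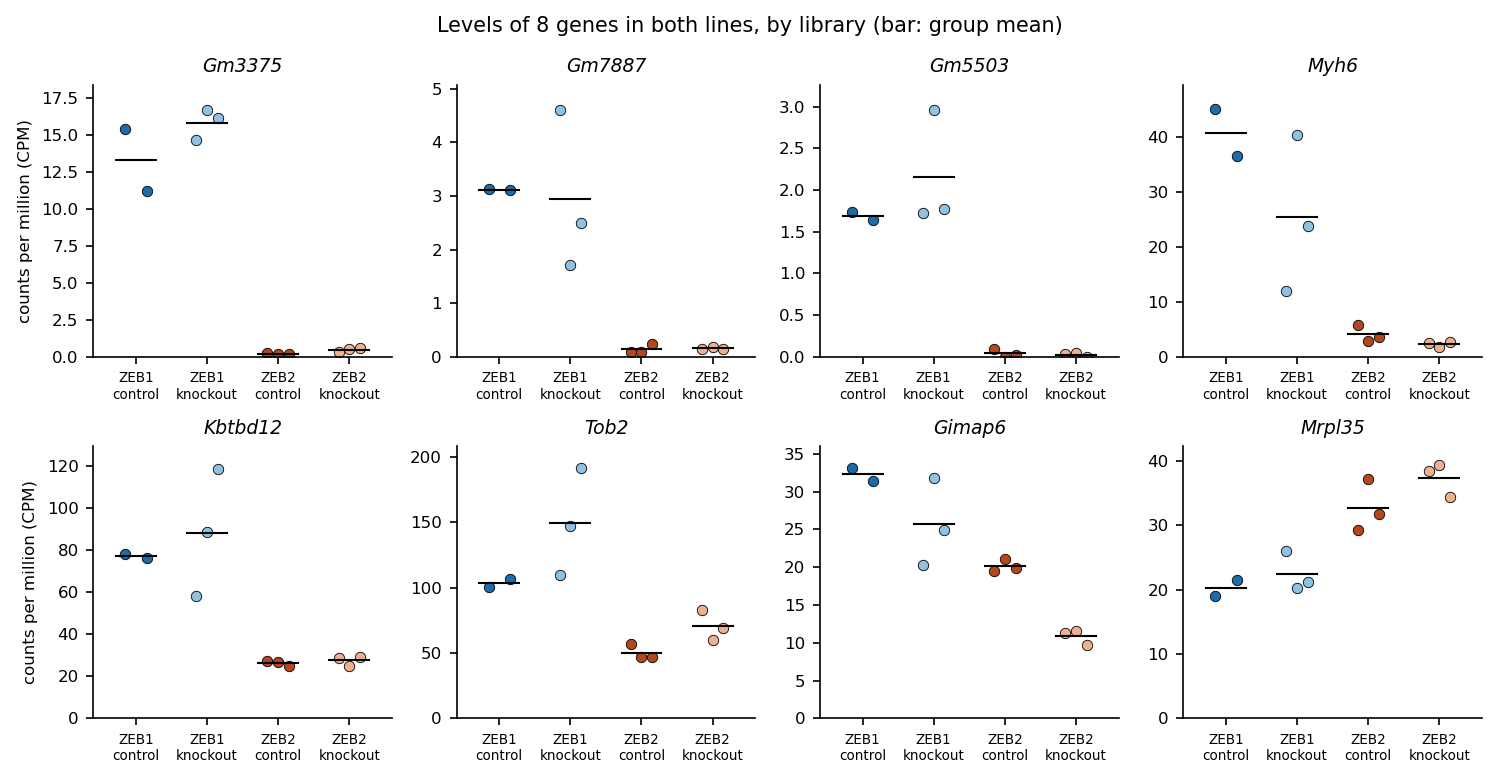
CPM of 8 genes in each of the 11 libraries (points) with the group mean (bar), each panel on its own axis from 0. For Gm3375, Gm7887, Gm5503, Myh6, Kbtbd12, Tob2 and Gimap6 the ZEB1 controls lie above the ZEB2 controls, and for Mrpl35 below.

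Averaging the control and the knockout difference with equal weight gave 22 called genes (0.143%), 4 higher (0.0259%) and 18 lower (0.117%) in the ZEB2 line. At an unadjusted p under 0.05 there were 1829 genes (11.9%), 791 higher (5.13%) and 1038 lower (6.73%). Of the 22 called genes, 10 were pseudogenes and 11 protein coding, and in 15 all 5 ZEB1 libraries lay apart from all 6 ZEB2 libraries (0.778% of all genes did so, 0.272% with ZEB2 higher and 0.506% with ZEB2 lower). An unadjusted p under 0.05 in both comparisons was reached by 18 of the 22. The other 4 were Gm12191, described further on, and Zeb1, Cdc42bpg and Ppt1, whose control log2 fold changes were 0.05, 0.03 and -0.37 and whose knockout ones were 1.22, -1.72 and -1.47, so their average came mainly from the knockouts. Without ZEB2 control 2 or without ZEB2 knockout 3 the count of 22 was 5, without ZEB2 knockout 1 it was 9, without ZEB2 knockout 2 it was 7, without ZEB1 control 2 it was 13 and without ZEB2 control 3 it was 12. It was 157 in DESeq2, 44 without a filter and 5 with the Y-linked level as a covariate.

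Tob2, Gimap6, Osbpl3 and Mrpl35 were coding genes called on this average. Tob2 encodes a protein that recruits the deadenylase complex to messenger RNA. It was at 100 and 107 CPM in ZEB1 controls and 56.6, 47.0 and 46.7 CPM in the ZEB2 controls (log2 fold change -1.05, SE 0.22), with a log2 fold change of -1.08 between the knockouts (average edgeR adjusted p = 0.019). Gimap6, a GTPase of immune cells, was at 33.2 and 31.4 CPM against 19.5, 21.0 and 19.8 CPM (log2 fold change -0.68, SE 0.17), and its knockout log2 fold change was -1.24 (edgeR adjusted p = 0.0159, and 0.235 with the Y-linked covariate). Osbpl3, a lipid transfer protein gene, was at 3.81 and 5.88 CPM against 2.85, 2.03 and 2.64 CPM (log2 fold change -0.95), with -1.74 between the knockouts. Each of these 3 had ZEB1 controls entirely above ZEB2 controls, but none passed the test between controls alone.

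Mrpl35, which encodes a protein of the large mitochondrial ribosomal subunit, had the smallest p among the coding genes that the naming rule took as higher in ZEB2 controls. Its level was 19.03 and 21.5 CPM in ZEB1 controls and 29.3, 37.2 and 31.8 CPM in the ZEB2 controls (log2 fold change 0.69, SE 0.16, edgeR adjusted p = 1). The knockouts repeated the order at 26.0, 20.2 and 21.2 CPM against 38.5, 39.3 and 34.4 CPM (log2 fold change 0.74). Its average difference was 0.71 (SE 0.11, edgeR adjusted p = 0.0299). Gm26782, a long non-coding RNA on chromosome 14, was at 2.24 and 2.69 CPM against 4.82, 5.44 and 4.90 CPM and was also called higher on average (edgeR adjusted p = 0.0448).

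Rnase2a and Gm15737 were further coding genes called lower on average. Rnase2a, a ribonuclease of eosinophil granules, had 23 and 10 counts in the ZEB1 controls and 1, 0 and 0 in the ZEB2 controls. The ratio in pooled CPM was 56.2 (95% exact interval 9.41 to 2287, counting error only) between the controls and 36.2 (9.61 to 306) between the knockouts. Gm15737 was at 2.93 and 1.99 CPM against 0.619, 0.709 and 0.700 CPM (log2 fold change -1.86), with -2.23 between the knockouts. It overlaps an antisense gene, and the strand setting of the counting is not given in the sources used here.

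Of the 10 pseudogenes called on average, 9 matched a coding transcript over at least 90% of their length, at 97.0% to 99.8% identity. The coding genes they matched had control log2 fold changes from -0.06 to 0.33. Gm3608, which resembles the actin-capping gene Capza1, was at 2.96 and 0.770 CPM in ZEB1 controls and 0.0619, 0.129 and 0.377 CPM in the ZEB2 controls. Gm9385, a copy of the ribosomal protein gene Rpl24, was at 9.20 and 10.6 CPM against 3.74, 3.96 and 3.07 CPM. Both kept the order in the knockouts, with log2 fold changes of -3.24 and -1.50.

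In 4 of the 10 pseudogenes called on average the line did not separate the libraries this way, and ZEB1 control 3 stood apart from its own group in 3 of them. Rps3a2 was at 58.3 CPM in ZEB1 control 2, 2.27 CPM in ZEB1 control 3, 74.4, 48.7 and 68.3 CPM in the ZEB1 knockouts and 1.88 to 3.08 CPM in the 6 ZEB2 libraries. Rps3a3, a further copy of Rps3a1, was at 54.1 and 1.12 CPM in the ZEB1 controls, 45.4 to 62.9 CPM in the ZEB1 knockouts and 0.377 to 1.18 CPM in ZEB2 libraries. So 4 of the 5 ZEB1 libraries were high for both copies and ZEB1 control 3 was as low as the ZEB2 line. Without ZEB1 control 2 the control log2 fold change was -0.19 for Rps3a2 and -1.27 for Rps3a3, and without ZEB1 control 3 it was -4.86 and -6.85. Each of these fits kept only the other ZEB1 control, so only the size of the difference is given. Rps3a1 itself was at 348 and 399 CPM in ZEB1 controls and 419, 427 and 398 CPM in the ZEB2 controls. Gm5436, a copy of the ATP synthase gene Atp5o, was at 7.63 and 0.874 CPM in ZEB1 controls and 0.612 to 1.16 CPM in the ZEB2 controls.

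Further pseudogenes were low in ZEB1 control 3 and in ZEB1 knockout 3 as well, among genes with an unadjusted p under 0.05 in both comparisons. Rps2-ps10, a copy of the ribosomal protein gene Rps2, was at 184 and 3.92 CPM in ZEB1 controls 2 and 3, at 110, 60.3 and 2.99 CPM in ZEB1 knockouts 1 to 3 and at 2.88 to 5.63 CPM in the ZEB2 libraries. Gm9825 was at 6.74 and 0.420 CPM in ZEB1 controls and 4.90, 2.19 and 0.290 CPM in the ZEB1 knockouts, and Gm13443 at 8.74 and 0.490 CPM and 4.84, 3.19 and 0.232 CPM. Tnxa was at 2.01 and 0 CPM and 1.92, 0.901 and 0 CPM. ZEB1 control 3 and ZEB1 knockout 3 were also the only ZEB1 pools with counts of Y-linked genes, at 163 and 210 CPM. Among the ZEB2 libraries, ZEB2 control 3 was at 0 CPM for the Y-linked genes. A link of these pseudogenes to the sex makeup of the pools was not tested. Of the 30 pseudogenes under 0.05 in both comparisons, 10 had all ZEB1 libraries apart from all ZEB2 libraries.

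Gm12191, a copy of the ribosomal protein gene Rpl30, had the opposite direction. It had no count in either ZEB1 control and 23, 30 and 51 counts in the ZEB2 controls, at least 20.3-fold higher against a floor of 3 counts over the ZEB1 control group (edgeR adjusted p = 0.0521). The ZEB1 knockouts were not at 0 but at 0.714, 1.03 and 1.31 CPM, close to the 1.49, 1.17 and 0.704 CPM of the ZEB2 knockouts (log2 fold change 0.14, SE 0.38). Its call on average therefore came from the control libraries. Rpl30-ps9, a second copy of Rpl30 at 99.4% identity, showed the mirror image: its level was 0.789 CPM in ZEB1 control 2 and 1.049 CPM in ZEB1 control 3, and it had no count in any of the 9 other libraries (edgeR adjusted p = 0.571). It was called lower in ZEB2 controls by DESeq2 (adjusted p = 0.0292), by limma-voom (0.00184) and without a low-count filter (0.00798). With counts in the ZEB1 controls alone, Rpl30-ps9 passed the low-count filter of the main fit only through the group where it was high. Those calls describe these libraries and are no separate support for a line difference. Rpl30 itself had a control log2 fold change of 0.04, and how the reads of these copies were shared out was not tested.

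H2-Ea-ps is an MHC class II alpha chain gene that is inactive in some laboratory strains. It had 130 counts in ZEB1 control 2, 1 count in ZEB1 control 3 and none in the 3 ZEB2 controls, at least 74.4-fold lower in ZEB2 controls against a floor of 3 counts over that group. The ZEB1 knockouts were at 2.57, 2.45 and 0 CPM and the ZEB2 knockouts at 0, 0.046 and 0 CPM. It was thus present in 3 ZEB1 libraries, near 0 in the 2 others and near 0 in all ZEB2 libraries, and it did not pass the test. The 2 others were the ZEB1 pools with counts of Y-linked genes. It belongs to a list of 22 tested genes that vary among laboratory strains, of which 17 were lower and 5 higher in ZEB2 controls, with a median log2 fold change of -0.25. Without ZEB1 control 2 that median was -0.012, and without ZEB1 control 3 it was -0.27.

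Over all genes, the control and the knockout difference had the same sign in 49.95% of genes. These differences are taken between separate libraries, but their p-values share the spread estimated in the common fit. Among the 512 genes with an unadjusted p under 0.05 between controls, 322 (62.9%) had the same sign between the knockouts. In 115 (22.5%) the knockout difference also had an unadjusted p under 0.05 with that sign, which is 0.746% of all genes and 3.40% of the 3380 genes under 0.05 between the knockouts. Of the 115, 85 were lower and 30 higher in the ZEB2 line, and 30 (26.1%) were pseudogenes, against 3.92% of genes tested. In 23 of these 30 a coding transcript matched over at least 90% of the length. These matched 20 distinct coding genes that were tested. None of the 20 had an unadjusted p under 0.05 between controls in edgeR (3.32% of all genes did), and 10 had one between the knockouts (21.9% of all genes did).

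The number of such genes depended on the libraries kept. Without ZEB1 control 2 it was 48, without ZEB1 control 3 it was 262, without ZEB2 control 2 it was 70 and without ZEB2 knockout 2 it was 76, and with the Y-linked level as a covariate it was 76. No gene was called for a change of the line difference with Cre in edgeR, where the smallest adjusted p was 0.139, although 1427 genes (9.26%) had an unadjusted p under 0.05, 643 with a positive change (4.17%) and 784 with a negative one (5.09%). DESeq2 called 15, and edgeR called 2 without ZEB1 control 2 and 3 without ZEB1 knockout 2.

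**Figure D3:**
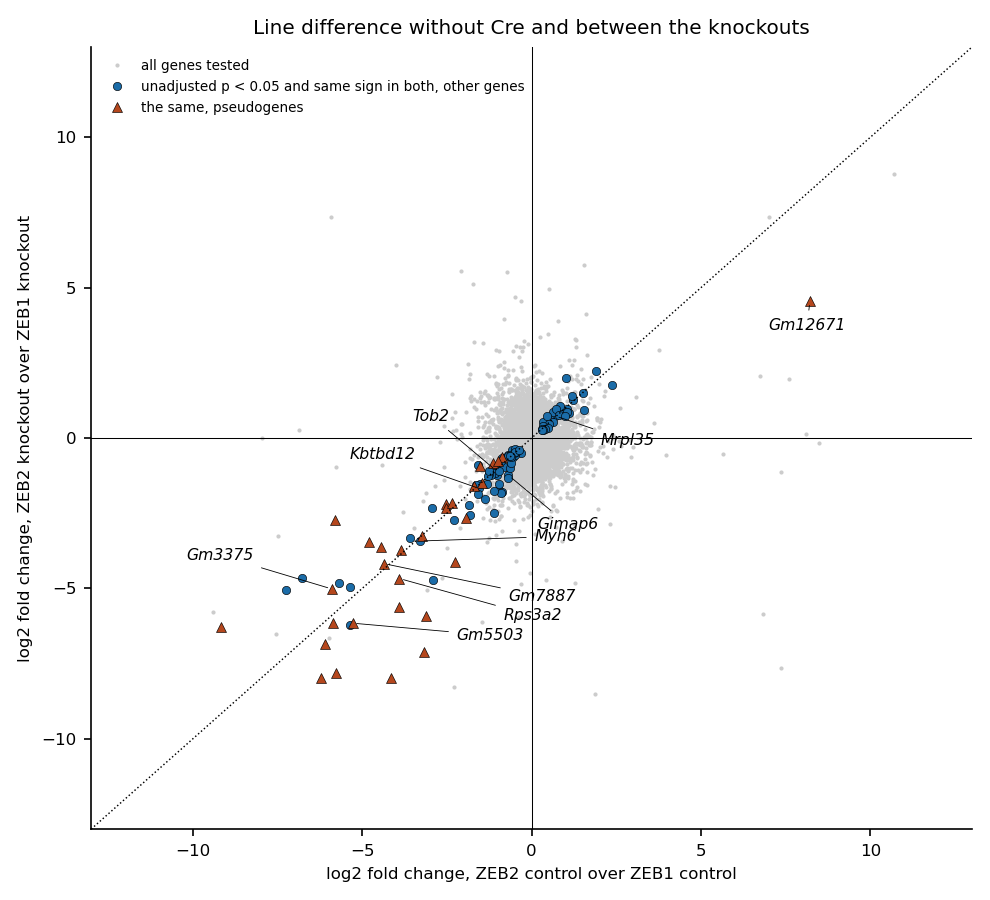
Log2 fold change between the control groups (horizontal axis) and between the knockouts (vertical axis) for 15416 genes (grey). Circles and triangles are the 115 genes with an unadjusted p under 0.05 and the same sign in both, triangles being pseudogenes, and the dotted line marks equal values; most triangles lie at the lower left, with Gm3375 at -5.90 and -5.02.

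The genes with an unadjusted p under 0.05 and the same sign in both comparisons were counted by chromosome, after the values were seen. On chromosome 6 they were 16 of 800 genes tested (2.00%), on chromosome 14 they were 9 of 547 (1.65%), on chromosome 17 they were 11 of 754 (1.46%) and on chromosome 11 they were 3 of 1219 (0.246%). Chromosomes 6 and 14 also held 6 and 4 of the genes called on average. On chromosome 6, 6 of 27 tested genes were among them from Gm7887 to Osbpl3, at 48524554 to 50456201 in GRCm38, a stretch that holds Gimap6 and Gimap3. From Krcc1 to St3gal5, at 71271677 to 72154571, 4 of 14 were, among them Mrpl35 and Polr1a, which encodes the largest subunit of RNA polymerase I. These stretches were picked after their values were seen, with their ends set by such genes. Kbtbd12 lies further along this chromosome, at 88545114 to 88637950. From Kbtbd12 to Pdzrn3, a sparser stretch of 12.8 Mb, 3 of 66 tested genes were among them. On chromosome 14, from Gm26782 to Mcpt4 at 50870324 to 56062313, 6 of 90 were, among them Rnase2a, Myh6 and the mast cell protease genes Cma1 and Mcpt4. Psmb5, the coding gene closest to Gm3375, also lies in this stretch but was not among them. How reads were shared between Psmb5 and Gm3375 was not tested.

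Directions on chromosome 6 were mixed. Polr1a was at 24.4 and 25.1 CPM in ZEB1 controls and 40.2, 37.5 and 38.4 CPM in ZEB2 controls (log2 fold change 0.64, and 0.54 between the knockouts). St3gal5, which makes the ganglioside GM3, was at 56.3 and 71.5 CPM against 144, 125 and 112 CPM (log2 fold change 0.99, and 0.74). The floxed genes themselves lie outside these stretches. Within 10 Mb of Zeb1, on chromosome 18, none of 54 tested genes was among the 115, and within 10 Mb of Zeb2, on chromosome 2, 1 of 63 was. Gm5503, called between the controls, lies on the chromosome of Zeb1 but outside that window. It is at 33384398 to 33384955, and Zeb1 is at 5591860 to 5775467.

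**Figure D4:**
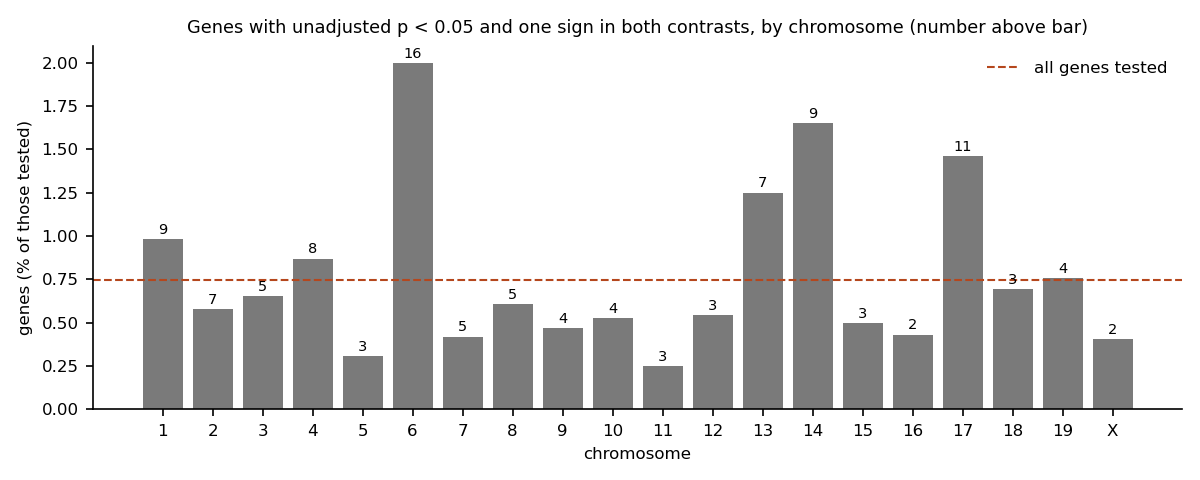
Share of the tested genes of each chromosome that had an unadjusted p under 0.05 and the same sign in both comparisons (bars, from 0), with their number above each bar; the dashed line is the share over all genes tested (0.746%). Chromosome 6 has the highest bar, at 2.00%, and chromosome 11 the lowest, at 0.246%.

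Zeb1 and Zeb2 were measured in all controls with their alleles intact. Zeb1 was at 41.2 and 51.1 CPM in ZEB1 controls and 47.7, 52.1 and 43.7 CPM in ZEB2 controls, which overlapped (log2 fold change 0.05, SE 0.15). Zeb2 was at 20.8 and 18.7 CPM in ZEB1 controls and 24.1, 23.1 and 25.8 CPM in ZEB2 controls (log2 fold change 0.30, SE 0.14, edgeR adjusted p = 1). In ZEB1 knockouts Zeb1 was at 28.4, 28.6 and 30.4 CPM, and in ZEB2 knockouts Zeb2 was at 18.3, 14.4 and 17.7 CPM, each below every control of its line. Gene counts hold exons outside a deleted part and RNA of cells without Cre. Of 10 tested epithelial genes that ZEB factors repress, 6 were higher and 4 lower between the controls, none called, with a median of 0.02 that ranged from -0.26 to 0.18 over the alternatives.

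The naming rule filled the higher side with Mrpl35 and 9 further coding genes, none of which passed the test, with control log2 fold changes from 0.45 to 2.99. Nes, the intermediate filament protein nestin, was at 21.4 and 18.9 CPM in ZEB1 controls and 30.2, 31.6 and 42.4 CPM in ZEB2 controls (log2 fold change 0.79). Syne2, a nuclear envelope anchor, was at 29.9 and 26.6 CPM against 40.1, 37.7 and 38.5 CPM (0.45), and Ryr3, a calcium release channel, at 0.756 and 0.490 CPM against 1.39, 1.26 and 1.56 CPM (1.17). The others were Banp, Lrrc14, Gpr4, Adgre5, Tmem254b and Kctd21. Of the 9, only Ryr3, Banp and Lrrc14 had knockout log2 fold changes above 0.10, at 0.47, 0.16 and 0.21. On the lower side Chac1, which breaks down glutathione, was at 124 and 90.2 CPM against 45.8, 36.5 and 24.6 CPM (-1.58), and at -0.88 between the knockouts. Pcdhgc4, a protocadherin gene, and Ndor1, a flavin reductase gene listed under 3 identifiers of which 1 was named, had -0.88 and -1.06 between the controls and 0.08 and 0.39 between the knockouts.

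Gene lists described the broader state of the muscle, and no list held a gene called between the controls. Over all genes the median control log2 fold change was 0.01, with 47.6% of genes lower in ZEB2 controls, and the knockout median was -0.05, with 54.3% lower. In bulk muscle fewer cells of a type and less RNA per cell cannot be told apart.

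Immediate-early genes, which are switched on within minutes of a stimulus, were lower in ZEB2 controls in 15 of 16 members, with a median of -0.66, and in 13 of 16 between the knockouts, with a median of -0.58. Their summed level was 393 and 511 CPM in ZEB1 controls against 216, 307 and 348 CPM in ZEB2 controls. It overlapped between the knockouts, at 562, 566 and 453 CPM in the ZEB1 line and 405, 421 and 513 CPM in the ZEB2 line. Ier3 was at 7.33 and 8.67 CPM against 4.70, 5.64 and 4.58 CPM (log2 fold change -0.69), with -0.97 between the knockouts, and was the 1 member with an unadjusted p under 0.05 in both. Fos was at 10.8 and 15.6 CPM against 4.79, 6.15 and 10.8 CPM. Over the alternatives the control median of this list stayed between -0.78 and -0.48.

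Macrophage markers were lower in 15 of 18 members between the controls, with a median of -0.33, and in 18 of 18 between the knockouts, with a median of -0.61. Their summed level was 262 and 231 CPM in ZEB1 controls, 208, 158 and 204 CPM in ZEB2 controls, 166 to 245 CPM in ZEB1 knockouts and 131 to 144 CPM in ZEB2 knockouts, so the ZEB2 line was below the ZEB1 line in both comparisons. Laptm5, a lysosomal protein of blood cells, was at 12.2 and 11.4 CPM against 8.81, 5.99 and 8.16 CPM (-0.62, and -0.56 between the knockouts), and Ctss, cathepsin S, at -0.61 and -0.62. Fibroblast markers were lower in 15 of 18 in both comparisons, with medians of -0.30 and -0.29. The ZEB1 controls differed by -0.59 on this list, more than the lines did, and its control median was -0.11 without ZEB1 control 2, -0.20 without ZEB2 control 2 and -0.50 without ZEB1 control 3. Its knockout median was -0.06 without ZEB1 knockout 2, -0.13 without ZEB2 knockout 3 and 0.11 with the Y-linked level as a covariate. The macrophage medians were -0.16 between controls without ZEB2 control 2 and -0.21 between knockouts with that covariate. Among the fibroblast markers Gsn, the actin-severing gelsolin, was at 1403 and 1579 CPM against 1052, 875 and 1072 CPM (-0.58), with -0.16 between the knockouts. The fibroblast markers Cxcl14 and C3 had an unadjusted p under 0.05 in both.

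Glucocorticoid-responsive genes did not repeat. They were lower in 17 of 18 members between the controls, with a median of -0.72, but higher in 16 of 18 between the knockouts, with a median of 0.54. The median difference between ZEB1 control 3 and ZEB1 control 2 was 1.94, more than the difference between the lines. Without ZEB1 control 3 the control median was 0.59 and without ZEB1 control 2 it was -1.32, and the knockout median was -0.07 with the Y-linked covariate. Errfi1, a feedback inhibitor of EGF receptor signalling, was at 38.8 and 167 CPM in ZEB1 controls and 27.2, 45.1 and 40.1 CPM in the ZEB2 controls. Interferon and antigen presentation genes were lower in 27 of 32, with a median of -0.25, but the median was 0.28 without ZEB1 control 2 and -0.62 without ZEB1 control 3, and the knockout median of -0.28 was 0.09 with the Y-linked covariate.

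On the higher side, 45 of 46 nuclear genes of oxidative phosphorylation were higher in ZEB2 controls by a median of 0.13, and 21 of 46 between the knockouts, with a median of -0.03. Ndufb5, a complex I subunit gene, was at 145 and 139 CPM against 144, 229 and 230 CPM. Of 13 mitochondrially encoded genes 12 were higher (median 0.21), led by mt-Co1, a subunit of cytochrome oxidase, at 50116 and 51386 CPM against 67117, 67657 and 67621 CPM (0.41). Between the knockouts 10 of 13 were higher (median 0.06). Tendon genes were higher in 10 of 11 (median 0.85) and in 7 of 11 between the knockouts (median 0.16). Their sum was 120 and 107 CPM in ZEB1 controls against 96.0, 140 and 202 CPM in ZEB2 controls, so ZEB2 control 1 lay below both ZEB1 controls. Erythroid genes were higher in 8 of 8 (median 0.37) and 6 of 8 between the knockouts (median 0.25), summing to 1180 and 1285 CPM against 1452, 1489 and 1851 CPM.

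Fast fibre genes had a median of 0.05 in both comparisons. Slow fibre genes were lower in 12 of 17 between the controls, with a median of -0.08, and in 16 of 17 between the knockouts, with a median of -0.40. The ZEB1 controls differed by -0.76 on the slow fibre list, whose control median was 0.21 without ZEB1 control 2 and -0.26 without ZEB1 control 3. Proteasome genes had a control median of 0.07 (26 of 32 higher) and a knockout median of 0.77 (32 of 32 higher), and cytosolic ribosome genes -0.02 and 0.29. The median log2 ratio of ZEB1 control 3 over ZEB1 control 2 was 0.84 for the proteasome, and its control median was -0.29 without ZEB1 control 2 and 0.55 without ZEB1 control 3.

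**Figure D5:**
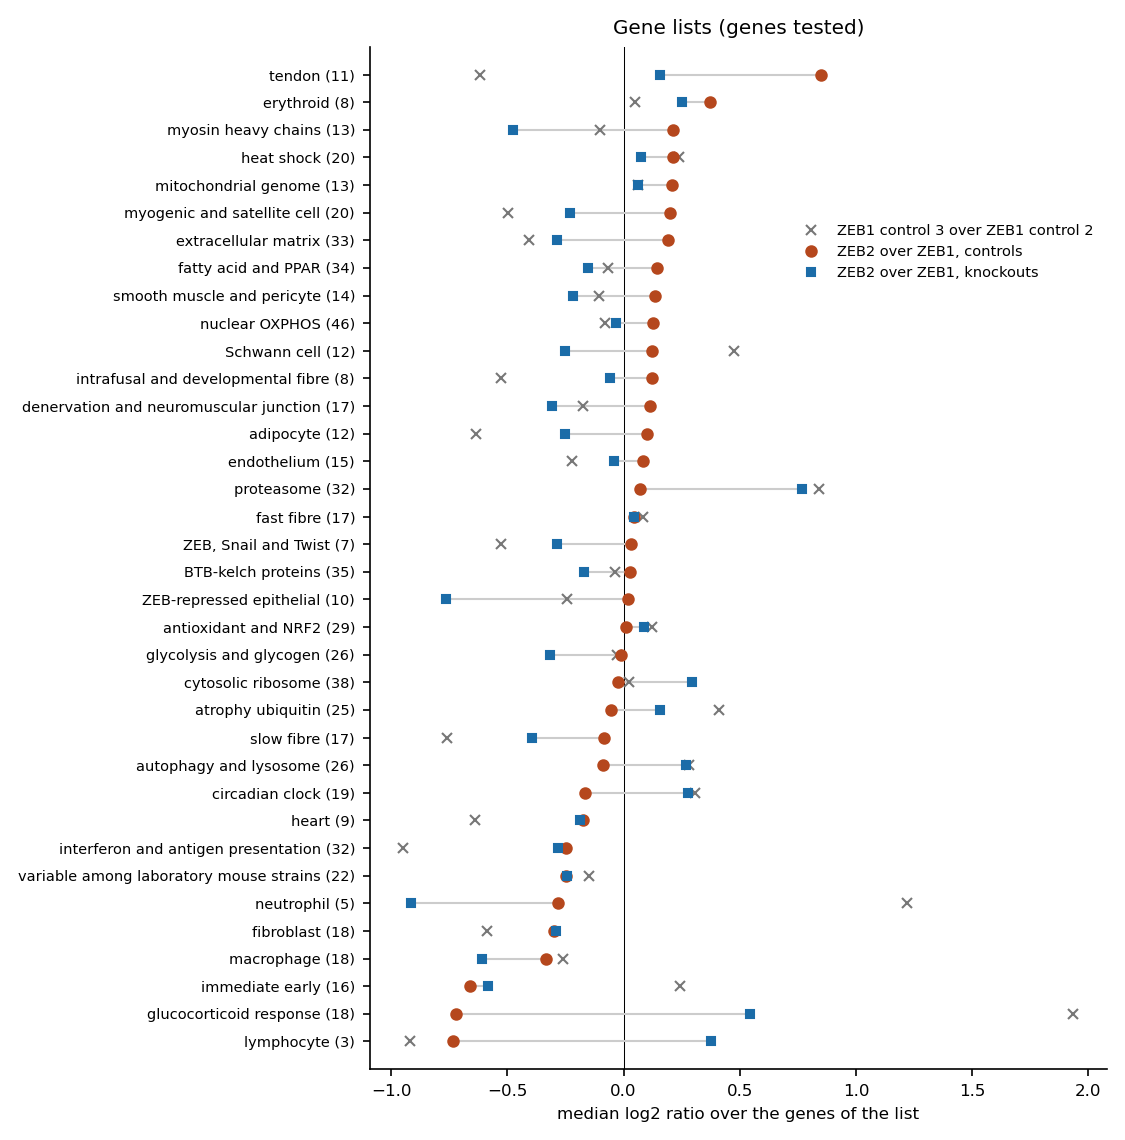
Median log2 ratio of each gene list (number of genes tested in brackets) for ZEB2 over ZEB1 controls (circles), ZEB2 over ZEB1 knockouts (squares) and ZEB1 control 3 over ZEB1 control 2 (crosses); the Y-linked list is left out. Circle and square are on the same side of 0 for the macrophage (-0.33 and -0.61), fibroblast (-0.30 and -0.29) and immediate-early (-0.66 and -0.58) lists and on opposite sides of 0 for glucocorticoid response, where the cross is at 1.94.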

How the data were processed

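Gene counts of 11 libraries were analysed, and the groups follow the genotype labels. The authors deposited estimated counts per gene, as whole numbers that were not normalized; the values and the naming of RSEM gave this unit. The submitters' processing notes list STAR, RSEM, DESeq2 and GRCm38. Their versions, the annotation and the strand setting were not found in the sources used here. Library preparation used a stranded mRNA kit, per the labels' protocols. Of 55385 genes, filterByExpr (minimum count 10, minimum total 15) kept 15416 with 99.96% of counts. One robust quasi-likelihood fit in edgeR 4.0.16 (R 4.3.3), with TMM scaling and 4 group means over all 11 libraries, gave the control difference, the knockout difference, their average and their change. P-values were adjusted by Benjamini-Hochberg over all genes tested. The SE is the absolute log2 fold change over the square root of F, and the biological coefficient of variation was 0.240. P-values measure the spread between pools of 2 mice, and with 2 against 3 libraries that spread was estimated largely from the other groups. Chi-square tests found every pair of replicates further apart than sampling of reads allows (16.3 to 109 per degree of freedom), so none was counted as a duplicate.

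Coordinates are from GENCODE M21 (GRCm38), which matched 55144 identifiers without their version. Closest coding transcripts were found with blastn 2.17.0 (same strand, e-value 1e-20). Named genes were Zeb1, Zeb2, Myh6, Kbtbd12, all genes called between controls, the next by unadjusted p to 10 per direction (mean of at least 1 CPM, control groups not overlapping, unnamed models passed over), up to 3 per list with the smallest p and genes called on average. Rps3a2, Rps3a3, Gm12191 and H2-Ea-ps were described further, and the pseudogene matches and chromosome stretches added, after values were seen. The members, the 37 gene lists and the tests were chosen with earlier results of these data known. The alternatives were other scalings (RLE, upper quartile), other filters, DESeq2 1.42.0, limma-voom (limma 3.58.1), only the groups compared, a replicate block, a Y-linked covariate and leaving out each library. The script was tested on simulated data.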

Additional observations from a re-analysis of the deposited data

Results flagged for a closer look

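Nes had groups that did not overlap in opposite directions, with a log2 fold change of 0.79 between the controls (higher in all 3 ZEB2 libraries) and -0.50 between the knockouts (lower in all 3). The difference between these differences was tested and not called (edgeR adjusted p = 0.516). Zeb2 showed the same, at 0.30 and -0.30 (edgeR adjusted p = 0.516), and is the gene deleted in the ZEB2 knockouts.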

How the results depend on the processing

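Leaving out 1 library at a time gave 1 to 5 calls between the controls, 2 to 55 between the knockouts, 5 to 31 on average, 0 to 3 for the change with Cre, 1 to 5 called in both comparisons and 48 to 262 genes with an unadjusted p under 0.05 and the same sign in both. Of the other settings, RLE scaling gave 5 control calls. No low-count filter gave 7 for the controls, 109 for the knockouts, 44 on average, 2 for the change and 5 called in both. DESeq2 gave 16, 830, 157, 15 and 12 in that order, and limma-voom gave 1 called in both. Fitting only the groups compared gave 46 knockout calls, and the Y-linked covariate gave 3 knockout calls, 5 on average and 76 genes with the same sign in both. The cause of these shifts was not tested.

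The replicate block gave 1 control call, 16 knockout calls, 10 on average and 1 called in both. Under it Gm7887 and Gm5503 missed the threshold between the controls (edgeR adjusted p = 0.0543 and 0.119) and Myh6 between the knockouts (0.0657). Whether equal numbers mark paired samples could not be settled from the data. Of 15 same-numbered pairs 8 had correlated deviations over 0.1 (r from -0.416 to 0.465), and those of the controls were -0.286 and -0.416. The deviations of the ZEB1 controls from their group mean mirror each other, so their r values are not independent.

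Among named genes 8 results changed sign, all from values near 0 except Gm5436. Its control log2 fold change ranged from -3.10 to 0.013 over the libraries left out, that of Zeb1 from -0.12 to 0.20 and that of Cdc42bpg from -0.039 to 0.099 (-0.000242 with a filter of 1 CPM), and the knockout one of Gm12191 from -0.11 to 0.40. Upper quartile scaling moved the median of all genes between the knockouts from -0.05 to -0.14. The count of same-sign genes and its alternatives were added after the data were seen. With 2 ZEB1 controls that differ from each other, and genes such as Gm5503 at 0 to 3 counts per ZEB2 library, small differences were not detectable. Large ones could miss the threshold between the controls too. Myh6, at a ratio of 9.82, had an edgeR adjusted p of 0.0556, and Kbtbd12, at 2.93, had 0.0783.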
